A study of Mus musculus with 15 samples.

Results

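The genes described here are 10 members of the MHC class II presentation and costimulation machinery, taken by symbol from the 47729 features of the count table: H2-Aa, H2-Ab1, H2-Eb1, Cd74, H2-DMa, H2-DMb1, H2-DMb2, Ciita, Cd86 and Cd40. All 10 were found, each as 1 feature, and all 10 passed the expression filter that left 24362 genes for testing. RNA came from macrophages gated as F4/80+ CD64+ and sorted by the olfactory receptor Olfr2 from the aortas of female Apoe-/- mice, whose genotype label reads "Apoe dko". The mice, which lack apolipoprotein E, had a diet labelled high fat for 4 weeks, and their age is not given in the sources used here. Both groups shared that genotype, diet and gate. Each sort held 100 to 200 cells and was a technical replicate from the pooled aortas of 4 mice, so each p-value reflects spread among these sorts alone, which may be technical. The libraries labelled Olfr2- were samples 1, 3 and 4 in 5 columns (1A, 3A, 3B, 4A, 4B), and those labelled Olfr2+ were samples 2, 3 and 4 in 10 columns (2A to 2D, 3A to 3D, 4A, 4B). The number was read as the sorted sample and the letter as its repeat, which the labels do not state. The labels give each column its own library name. A second string, shared by some columns, was used to group them and is called the library string here. Columns that share it are not stated to come from 1 library.

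MHC class II molecules display peptides from endosomes to CD4 T cells. The H2-Aa and H2-Ab1 chains pair as I-A, and H2-Eb1 is the beta chain of I-E. Cd74, the invariant chain, fills the groove of new class II dimers and guides them to endosomes. There H2-DM, a dimer of H2-DMa with H2-DMb1 or H2-DMb2, exchanges the remnant of Cd74 for peptide. Ciita is the coactivator that switches on these genes, in macrophages mainly after interferon gamma. Cd86 is a ligand of CD28 and CTLA-4 on T cells, and Cd40 is the receptor for the CD40 ligand of activated T cells. Resident and inflammatory macrophages of the artery wall, dendritic cells and B cells can all carry class II.

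The labels and the libraries differed in 3 respects that touch every value below. The sorting gene went against the labels: Olfr2 counts per column were 76, 0, 34, 25 and 10 in the libraries labelled Olfr2- and ran from 0 to 7 in those labelled Olfr2+, with 5 of 10 at 0. Its TMM-scaled difference was -3.55 on the log2 scale (SE 1.39, edgeR adjusted p = 0.104), so each direction below is between libraries as labelled. Totals also divided the columns: 7 Olfr2+ columns (2A to 2D and 3A to 3C, called deep) held 76.0 to 95.6 M counts (M, 1000000), whereas 3D, 4A and 4B of Olfr2+ and the 5 Olfr2- columns held 29.9 to 53.2 M. Protein-coding genes took 94.6 to 97.5% of the deep columns and 78.5 to 85.6% of the other 8. Finally, the gate's own markers were uneven. In CPM (counts per 1000000 of the column's total), Adgre1, which encodes F4/80, ran from 9.48 to 235 in Olfr2- columns and from 46.0 to 312 in Olfr2+ columns. Fcgr1, which encodes CD64, ran from 4.18 to 19.9 and from 0.544 to 103. In bulk RNA, fewer cells of a type and less RNA per cell cannot be told apart.

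Class II promoters carry a conserved set of elements at which Ciita is recruited, among them an X box and a Y box that holds the reverse complement of CCAAT. Promoter windows of 300 bases, from 250 before to 50 after the start, were taken from the RefSeq table (GRCm38.p6) for 5 of the 10 genes. These were H2-Aa, H2-Eb1, H2-DMa, H2-DMb1 and H2-DMb2. Windows of H2-Ab1, Cd74, Ciita, Cd86 and Cd40 are not described, and whether that table holds them is not stated here. Of these 5, the windows of H2-Aa (chr17:34287774-34288073, minus strand) and H2-Eb1 (chr17:34305617-34305916, plus strand) are shown because both hold GCAAC followed on the same strand by GATTGG. These are the capitals below, each sequence running 5′ to 3′ along its gene.
H2-Aa: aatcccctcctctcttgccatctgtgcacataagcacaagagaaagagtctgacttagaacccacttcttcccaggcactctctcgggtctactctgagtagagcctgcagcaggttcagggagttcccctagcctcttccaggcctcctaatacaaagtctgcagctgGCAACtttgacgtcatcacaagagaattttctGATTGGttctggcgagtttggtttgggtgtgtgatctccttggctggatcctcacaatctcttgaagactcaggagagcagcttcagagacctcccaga
H2-Eb1: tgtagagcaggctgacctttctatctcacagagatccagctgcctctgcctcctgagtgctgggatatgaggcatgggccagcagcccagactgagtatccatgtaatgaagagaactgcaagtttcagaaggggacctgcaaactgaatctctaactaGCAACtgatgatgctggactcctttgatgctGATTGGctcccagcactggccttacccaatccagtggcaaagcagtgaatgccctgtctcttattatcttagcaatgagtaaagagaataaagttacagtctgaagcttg
The stretch between GCAAC and GATTGG was 27 bases in H2-Aa and 26 in H2-Eb1, and GCAAC began 81 and 91 bases before the start. Across 32851 promoters searched on both strands, the pair with 15 to 45 bases between its parts was in 0.508% (167), against 35.2% for GCAAC alone and 37.4% for CCAAT alone. GATTGG contains the reverse complement of CCAAT, so these searches overlap. A match of letters is a description and not a bound site.

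The windows of both beta-chain genes of H2-DM are shown because their transcripts share sequence, which bears on their counts. H2-DMb1 lies at chr17:34152941-34153240 and H2-DMb2 at chr17:34144999-34145298, both on the plus strand, and the capitals mark ATTGG, the reverse complement of CCAAT.
H2-DMb1: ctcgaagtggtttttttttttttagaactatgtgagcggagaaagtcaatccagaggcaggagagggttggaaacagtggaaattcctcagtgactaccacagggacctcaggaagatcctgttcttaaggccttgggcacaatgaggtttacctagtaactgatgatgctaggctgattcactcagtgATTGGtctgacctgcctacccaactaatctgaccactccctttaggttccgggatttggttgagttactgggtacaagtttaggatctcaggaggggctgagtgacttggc
H2-DMb2: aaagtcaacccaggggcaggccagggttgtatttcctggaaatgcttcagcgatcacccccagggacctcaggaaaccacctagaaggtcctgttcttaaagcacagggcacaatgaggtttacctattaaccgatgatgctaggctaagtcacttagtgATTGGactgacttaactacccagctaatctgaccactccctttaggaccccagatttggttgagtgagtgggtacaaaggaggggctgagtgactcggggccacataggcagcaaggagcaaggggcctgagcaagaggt
Neither window held GCAAC exactly, and variants of these letters were not searched, so the presence of an X box was not tested. The palindromic motif TTCNNNGAA, a core to which STAT factors can bind, was in the H2-DMb2 window and in none of the other 5 windows searched (those of H2-DMa, H2-DMb1, H2-Aa and H2-Eb1), against 8.30% of all promoters.

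Of the 10 genes, Cd74 and H2-Ab1 rose in the libraries labelled Olfr2+, none fell, and 8 did not pass the test. Higher calls were 1.12% and lower calls 0.46% of all genes tested (273 and 112), with edgeR's quasi-likelihood test and an adjusted p under 0.05. At edgeR's unadjusted p under 0.05, 8 of the 10 were higher and 0 lower, beside 4161 and 3660 of all 24362 genes tested. DESeq2 called 4 higher and 0 lower, beside 4016 and 2695 of the 28772 genes it tested, and limma-voom called 0 of all genes. The 10 genes had a median log2 fold change of 2.15, beside 0.24 over all genes tested. After summing columns per sample and TMM scaling, 8 of the 10 (all but H2-DMa and Cd40) were higher in every Olfr2+ sample than in every Olfr2- sample, beside 13.5% of all genes, and 0 were lower throughout, beside 22.1%. This separation depends on the scaling. TMM factors were 1.337 to 1.655 in Olfr2- samples and 0.485 to 0.869 in Olfr2+ samples, which lowers Olfr2- levels and raises Olfr2+ levels. Separation of summed samples without TMM was not counted. Scaled by library totals alone, the calls over all genes were 80 higher and 256 lower, with a median of -0.87 over all genes and 1.04 over the 10. Relative to the median of all genes, Cd74 stood 3.13 higher under TMM and 2.97 under library totals, and H2-Aa 1.63 and 1.61. With genes of a mean of at least 10 CPM only, and TMM recomputed, the differences were smaller. The median was then 0.66 over the 10 and 0.17 over all genes, and Cd74 stood 1.59, H2-Aa 0.26 and H2-Eb1 0.23 above that of all genes.

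**Figure D1:**
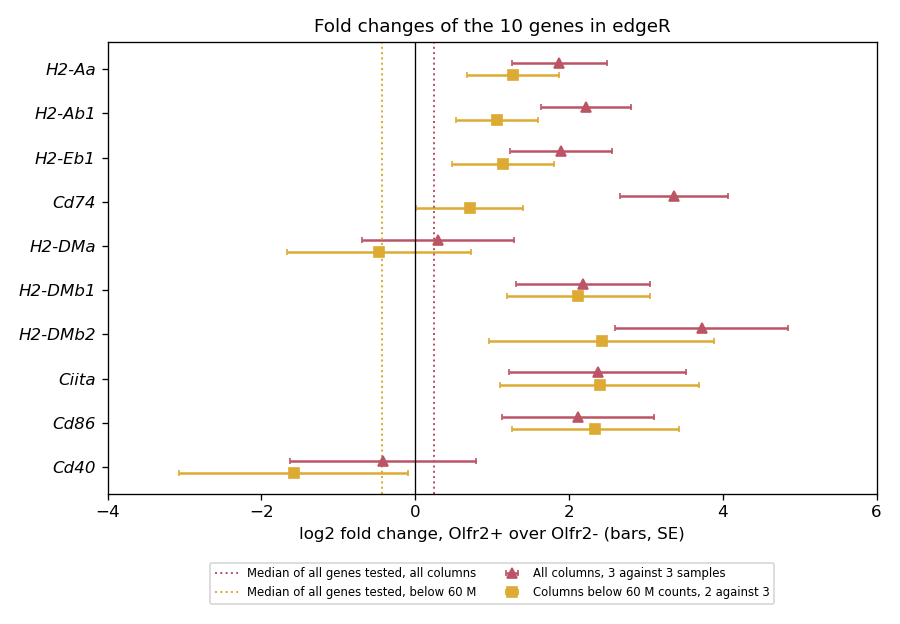
Log2 fold change (Olfr2+ over Olfr2-) of each of the 10 genes with its standard error, in the comparison of all summed samples and in that of columns below 60 M counts, with the median of all genes for each. Cd74 went from 3.37 to 0.71 between the comparisons, while H2-DMb1, Ciita and Cd86 were between 2.12 and 2.40 in both.

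Restricting the comparison to columns below 60 M counts, so that both groups had like depth, left samples 3D and 4 (4A with 4B) for Olfr2+ against the 3 Olfr2- samples. edgeR then called 0 of the 10 and 0% of all 29989 genes in either direction. At an unadjusted p under 0.05, 3 of the 10 (H2-Aa, H2-DMb1 and Cd86) were higher and 0 lower, beside 1455 and 1672 of the 29989 genes. The median over the 10 was 1.21, and over all genes -0.43.

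By mean CPM over the 15 columns, Cd74 (7959) was the highest member, followed by the class II chains H2-Ab1 (6219), H2-Aa (4173) and H2-Eb1 (2772). H2-Ab1, the I-A beta chain, had TMM-scaled levels of 1323, 3258 and 2980 CPM in Olfr2- samples 1, 3 and 4, and 18002, 11182 and 6065 CPM in Olfr2+ samples 2, 3 and 4. No Olfr2+ sample reached down to the Olfr2- range, with sample 4 the nearest to it. The means were 2520 ± 1046 and 11750 ± 5988 CPM (SD, n = 3 each) and the log2 difference was 2.22 (SE 0.58), which passed (edgeR adjusted p = 0.0494). That edgeR call was lost when any of Olfr2- samples 1, 3 or 4 or Olfr2+ samples 2 or 3 was left out (adjusted p 0.112, 0.0586, 0.118, 0.156 and 0.103) and held at 0.0449 without Olfr2+ sample 4. Below 60 M counts H2-Ab1 differed by 1.06 on the log2 scale (SE 0.54, edgeR adjusted p = 0.497).

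H2-Aa, the I-A alpha chain, had 956, 3605 and 1521 CPM in the Olfr2- samples and 9934, 6402 and 5949 in the Olfr2+ samples, TMM-scaled. All 3 Olfr2+ samples lay above the highest Olfr2- sample, and Olfr2- sample 3 stood above the other 2 of its group. The log2 fold change was 1.87 (SE 0.62) and did not pass (edgeR adjusted p = 0.0786). H2-Eb1, the I-E beta chain, had 725, 2454 and 772 CPM against 6801, 4593 and 3339, in the same order of samples. Its log2 difference of 1.90 (SE 0.66) did not pass (edgeR adjusted p = 0.0855). In both genes Olfr2- sample 3 was the highest of its group and Olfr2+ sample 2 the highest of the other, as for Cd74. In columns of like depth, H2-Aa differed by 1.27 (SE 0.60) and H2-Eb1 by 1.15 (SE 0.66) on the log2 scale, neither past the test.

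**Figure D2:**
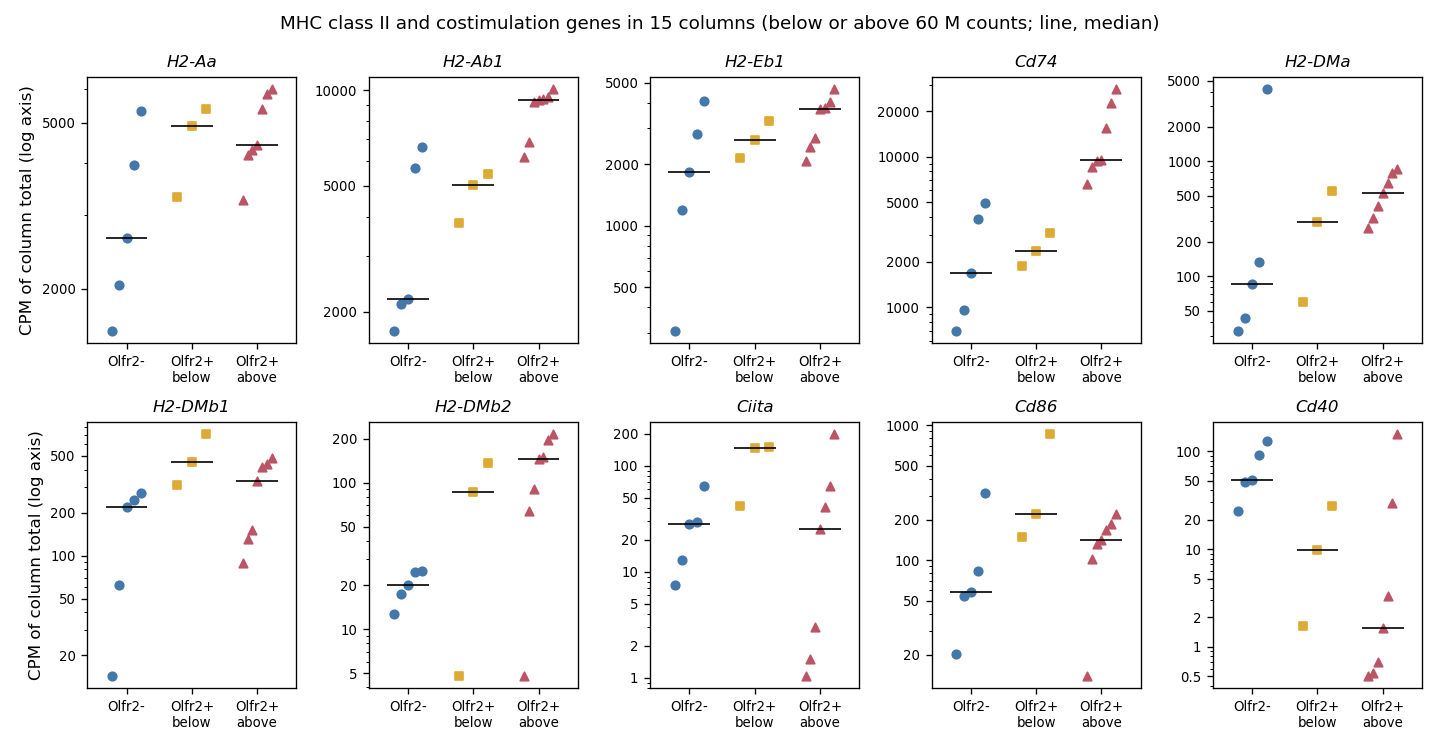
Level of each of the 10 genes in each of the 15 columns, in CPM of the column's total on a log axis, with Olfr2- columns, Olfr2+ columns below 60 M counts and deep Olfr2+ columns marked apart. None of the 10 separates all Olfr2+ from all Olfr2- columns, and H2-DMa in Olfr2- column 4A stands at 4222 CPM.

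Single columns, in CPM of their totals, overlapped more than the summed samples, which were TMM-scaled. Both the summing and the scaling differ between these views, and their parts were not separated. Over the 15 columns 0 of the 10 genes separated the labels in either direction, beside 0.0821% of all genes higher and 1.78% lower. H2-Aa was at 1583, 5337, 3957, 2047 and 2645 CPM in the 5 Olfr2- columns, and the 10 Olfr2+ columns had a lowest value of 3261, a median of 4665 and a highest of 6006 CPM. Olfr2- columns 3A and 3B thus lay within the Olfr2+ range, and the other 3 below it. H2-Aa was also the steadiest gene of the 10 between deep and other Olfr2+ columns, with medians of 4426 and 4904 CPM. Its level in columns that share a library string (6 pairs within a depth set) differed by a median of 0.25 on the log2 scale, beside 0.57 for genes of like level.

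Cd74 had the largest difference among the high-count members. Its TMM-scaled levels were 419, 2562 and 1924 CPM in Olfr2- samples 1, 3 and 4, and 27491, 19896 and 3195 CPM in Olfr2+ samples 2, 3 and 4. Olfr2+ sample 4, the one with no deep column, lay close above the Olfr2- samples, and the other 2 Olfr2+ samples far above. On the log2 scale the labels differed by 3.37 (SE 0.71, edgeR adjusted p = 0.0284), with means of 1635 ± 1100 and 16860 ± 12429 CPM (SD, n = 3 each). Without Olfr2+ sample 2 the call was lost (log2 fold change 2.79, adjusted p = 0.0901). The value was 2.72 without Olfr2- sample 1 and 4.01 without Olfr2- sample 3, both still called. Below 60 M counts it was 0.71 (SE 0.70, edgeR adjusted p = 0.731).

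Column by column, Cd74 followed depth more closely than label. The 5 Olfr2- columns held 694, 4899, 963, 3855 and 1696 CPM, and Olfr2+ columns 3D, 4A and 4B held 1891, 3092 and 2381, inside that range. The 7 deep columns had a lowest value of 6534, a median of 9448 and a highest of 27956 CPM, all above the other 8. Cd74 and H2-Ab1 were the 2 of the 10 whose deep Olfr2+ columns were all above the other Olfr2+ columns (beside 2.85% of all genes), and 0 were all below (beside 18.9%). Columns 3C and 3D share a library string and fall on either side of 60 M counts. In CPM + 1, Cd74 was 11.9-fold higher in 3C than in 3D, H2-Ab1 2.5-fold, H2-Eb1 1.9-fold and H2-Aa 1.6-fold. H2-DMb2 was 25.8-fold higher and Cd40 7.2-fold lower in 3C, and the remaining members differed by at most 1.6-fold. The median difference was 4.2-fold in either direction over genes of at least 10 CPM. Which step made the columns differ was not tested.

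The ratio of Cd74 to its partners also divided by depth. Cd74 counts per count of H2-Aa, H2-Ab1 and H2-Eb1 together were 0.401 to 1.41 (median 0.742) in the deep columns. Olfr2+ columns 3D, 4A and 4B had 0.180 to 0.230, and the Olfr2- columns 0.0949 to 0.366 (median 0.354). Every deep column was above every other column, and the Olfr2+ columns below 60 M counts lay inside the Olfr2- range. The balance within I-A differed as well, with 1.59 to 2.25 counts of H2-Ab1 per count of H2-Aa in the deep columns and 1.01 to 1.15 in the other Olfr2+ columns. In Olfr2- that ratio ran from 0.534 (3B) to 3.25 (4A), wider than in Olfr2+. H2-Eb1 per H2-Aa was 0.486 to 0.859 over all 10 Olfr2+ columns and 0.115 to 1.03 in Olfr2-, with the lowest in 4B.

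**Figure D3:**
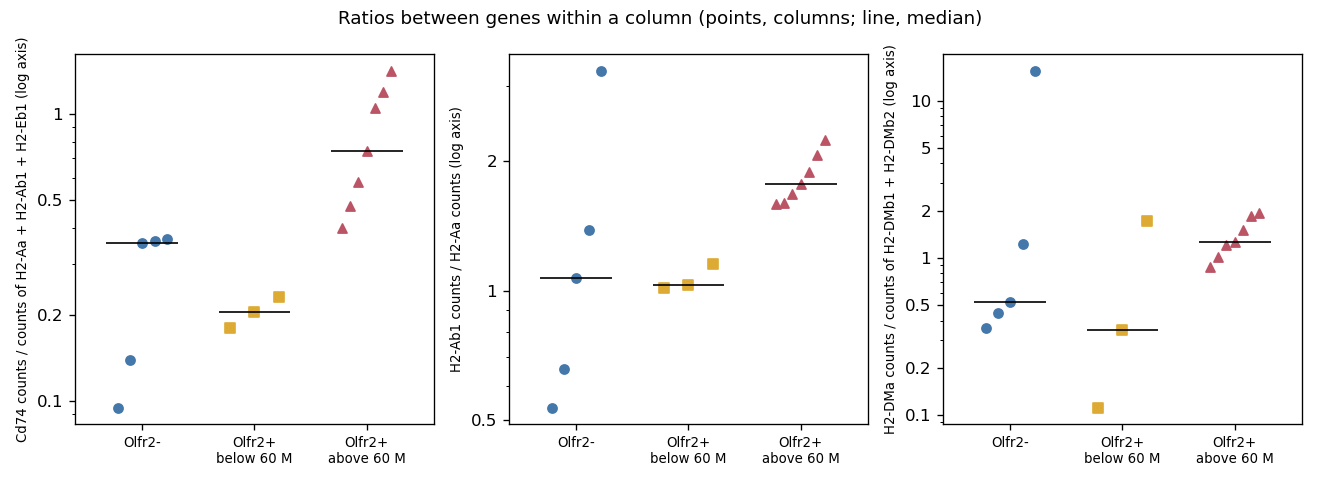
Count ratios between members in each of the 15 columns on a log axis. Cd74 per count of the 3 chains is at least 0.401 in the 7 deep Olfr2+ columns and at most 0.366 in the other 8, and H2-DMa per count of the H2-DM beta chains reaches 15.5 in Olfr2- column 4A.

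The H2-DM genes differed from one another. H2-DMb2 had TMM-scaled levels of 10.5, 17.0 and 12.9 CPM in the Olfr2- samples and 216, 186 and 132 CPM in the Olfr2+ samples, and H2-DMb1 had 132, 145 and 96.1 against 540, 477 and 681. Neither overlapped between the labels, and in both the Olfr2- samples lay close together (13.5 ± 3.30 and 124 ± 25.4 CPM, SD, n = 3). The log2 fold changes were 3.73 (SE 1.13, edgeR adjusted p = 0.0683) for H2-DMb2 and 2.19 (SE 0.87, adjusted p = 0.107) for H2-DMb1, so neither passed, although DESeq2 called both (adjusted p = 0.0012 and 0.0465). H2-DMb1 kept its size below 60 M counts, at 2.12 (SE 0.93, edgeR adjusted p = 0.464). It was the 1 gene of the 10 whose Olfr2+ columns below 60 M counts (314, 706 and 449 CPM) were all above the 5 Olfr2- columns (219, 273, 61.9, 247 and 14.3 CPM), beside 1.02% of all genes higher and 5.18% lower.

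H2-DMb2 was far less even between columns. It lay at 12.7 to 24.9 CPM in the 5 Olfr2- columns, and 8 of the 10 Olfr2+ columns were above that range, at 64.3 to 214 CPM. The other 2, Olfr2+ columns 2A and 3D, held 4.76 and 4.82 CPM, below every Olfr2- column. H2-DMb1 and H2-DMb2 are near copies: of all stretches of 50 letters in their transcripts, 22.7% of those of H2-DMb1 and 21.2% of those of H2-DMb2 are shared with the other. Their counts are therefore uncertain relative to each other, and H2-DMb2 counts per H2-DMb1 count ran from 0.0153 to 2.20 over the Olfr2+ columns.

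H2-DMa, the alpha chain, turned on 1 column. Its 5 Olfr2- columns held 84.9, 133, 43.1, 4222 and 33.1 CPM, and the 10 Olfr2+ columns had a lowest value of 59.8, a median of 465 and a highest of 864 CPM. Column 4A of Olfr2-, with 176651 counts, was above every other column, and the other 4 Olfr2- columns were below 9 of the 10 Olfr2+ columns. Repeat 4B, which carries the same library string, had 1061 counts, and CPM + 1 was 124-fold higher in 4A than in 4B. The summed samples differed by 0.30 on the log2 scale (SE 0.99, edgeR adjusted p = 0.832). Leaving out column 4A, an alternative chosen after seeing the data, gave 3.77 (SE 1.08, adjusted p = 0.0674), which did not pass either. H2-DMa overlaps Brd2 on the opposite strand, with 8.43% of its stretches of 50 letters antisense to Brd2, and the counting is not stated to use strand. Brd2 was at 255 CPM (10662 counts) in column 4A, at 136, 75.0, 138 and 123 CPM in Olfr2- 1A, 3A, 3B and 4B, and at 50.4 to 566 CPM in Olfr2+. Column 4A was thus the highest Olfr2- column for both genes, and the part of shared reads in the H2-DMa value was not tested. H2-DMa per count of the beta chains was 15.5 in that column and 0.360 to 1.23 in the other 4 of Olfr2-.

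**Figure D4:**
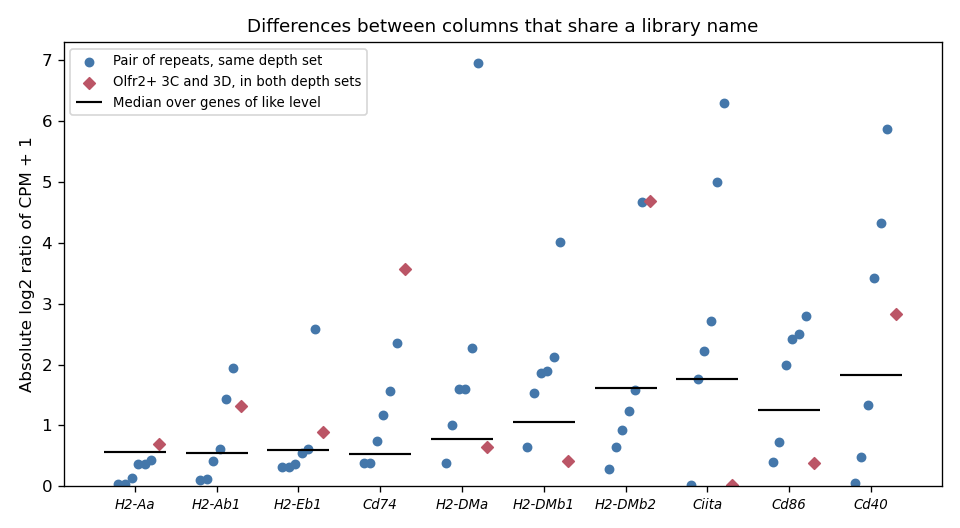
Absolute difference of log2(CPM + 1) between columns that share a library string, by gene, with the median of genes of like level. The pairs are 6 within a depth set and the pair 3C and 3D across it. H2-Aa pairs differ by 0.04 to 0.43 and H2-DMa pairs by 0.38 to 6.95.

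Ciita, the coactivator upstream of these genes, was low. Its TMM-scaled levels were 17.8, 33.5 and 12.6 CPM in the Olfr2- samples and 50.0, 112 and 169 CPM in the Olfr2+ samples, with no overlap. The highest Olfr2+ sample was sample 4, the lowest of its group for Cd74 and the 3 chains. The log2 fold change of 2.37 (SE 1.15) did not pass (edgeR adjusted p = 0.153) and was 2.40 (SE 1.29) below 60 M counts. Between columns Ciita ran from 1.04 to 198 CPM in Olfr2+ (median 41.0) and from 7.48 to 63.9 in Olfr2-. Olfr2+ columns 2A, 2C and 3B held 1.04, 3.01 and 1.51 CPM, below all Olfr2- columns, while the same columns held 6534 to 9448 CPM of Cd74. Columns sharing a library string differed in Ciita by a median of 2.48 on the log2 scale (range 0.03 to 6.30 over 6 pairs), beside 1.76 for genes of like level.

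The costimulatory genes did not move together. Cd86 had TMM-scaled levels of 32.9, 163 and 37.0 CPM in the Olfr2- samples and 238, 244 and 532 CPM in the Olfr2+ samples. The groups did not overlap, and Olfr2+ sample 4 was again the highest. The log2 difference of 2.12 (SE 0.99) did not pass (edgeR adjusted p = 0.144), nor did that of 2.34 (SE 1.09, adjusted p = 0.473) below 60 M counts. Cd86 was at 856 CPM in Olfr2+ column 4B and 149 CPM in its repeat 4A, and at 13.8 to 219 CPM in the deep columns. The 5 Olfr2- columns held 54.5, 314, 58.0, 83.7 and 20.2 CPM, so that 3A lay above all Olfr2+ columns but 4B.

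Cd40 did not pass the test as reported or under any of the 17 alternatives run. The TMM-scaled levels were 14.7, 85.2 and 32.5 CPM in the Olfr2- samples and 18.3, 62.5 and 18.4 CPM in the Olfr2+ samples, and the groups overlapped. The log2 difference was -0.42 (SE 1.21, edgeR adjusted p = 0.811), and it was 0.65 without Olfr2- sample 3. It was -1.58 (SE 1.49, adjusted p = 0.718) below 60 M counts, -1.44 with library totals and -1.79 with genes of at least 10 CPM, none past the test, and lower in Olfr2+ under 16 of 17 alternatives. In columns, Olfr2- ran from 24.4 to 127 CPM, and Olfr2+ from 0.500 to 149 CPM with a median of 2.48. Of the 10 Olfr2+ columns 7 were below every Olfr2- column. The highest Olfr2+ column was 3B, whose repeat 3A held 1.57 CPM. The lowest value of any member was also of Cd40, 38 counts in Olfr2+ 3C, and its exact 95% interval of 0.354 to 0.687 CPM covers counting error only. Counts of Cd86 per count of Cd40 ran from 0.401 to 2.46 in Olfr2- and from 0.939 to 522 in Olfr2+.

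Per kilobase of exon, the order of the members could be compared between genes. In Olfr2- the medians over columns were 1010 CPM per kilobase for Cd74, 943 for H2-Eb1, 853 for H2-Ab1 and 696 for H2-Aa, and these 4 neighbours did not differ beyond their spread over columns (413 to 2918 for Cd74). H2-DMb1 followed at 130 (8.50 to 163), then H2-DMa at 24.6, Cd86 at 15.8, Cd40 at 14.8, H2-DMb2 at 11.4 and Ciita at 2.94, whose ranges overlapped in part. In the deep Olfr2+ columns Cd74 led at 5627 (3892 to 16650), beside 3627 for H2-Ab1 (2400 to 3925), 1905 for H2-Eb1 and 1165 for H2-Aa. Cd74 and H2-Ab1 still overlapped at their edges, while H2-Ab1 lay above H2-Eb1 (1068 to 2388) and H2-Aa (859 to 1581) in every deep column. H2-DMb1 (198), H2-DMa (152), H2-DMb2 (83.5), Cd86 (38.2), Ciita (2.67) and Cd40 (0.460) came after them. By medians, the chains and Cd74 were thus the 4 highest members per kilobase in each set of columns. Cd40 likewise went from above Ciita in Olfr2- to below it in Olfr2+. Single columns departed from this order. H2-DMa reached 1224 CPM per kilobase in Olfr2- column 4A. Cd40 reached 43.8 in deep column 3B, above the highest deep value of Ciita (20.7). All H2 genes are on chromosome 17, Ciita and Cd86 on 16, Cd40 on 2 and Cd74 on 18 in GRCm38, the build of the annotation used for exon lengths.

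Genes of the wider pathway were described from lists chosen with earlier results of these data known. Of 9 genes of endosomal antigen processing, 1 rose, 0 fell and 8 did not pass, with a median log2 fold change of 2.25 (1.22 below 60 M counts). The 1 was Ctsz, a lysosomal cysteine protease, at 137 ± 90.1 CPM in Olfr2- and 1699 ± 1206 in Olfr2+ (SD, n = 3, log2 fold change 3.63, SE 0.88, edgeR adjusted p = 0.0427), and differed by 1.64 below 60 M counts (adjusted p = 0.546). Ctss, the cathepsin that trims Cd74 in antigen-presenting cells, had 848 ± 243 against 2857 ± 338 CPM and no overlap between samples, but did not pass (adjusted p = 0.0975). Cst3, a cathepsin inhibitor, Ctsb and Ctsl, both lysosomal cathepsins, had log2 fold changes of 1.95, 2.25 and 2.99 and did not pass. Summed over the list, the 10 Olfr2+ columns held 6046 to 13967 CPM and the 5 Olfr2- columns 3154 to 5873, with no overlap.

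Of the 9 genes on the route from interferon gamma to Ciita, edgeR called 0 (1 was higher at an unadjusted p under 0.05), DESeq2 1 and limma-voom 0. The list had a median log2 fold change of 1.2 (0.24 over all genes), and 4 of its genes were higher without overlap, beside 13.5% of all genes. Ifngr1, a chain of the interferon gamma receptor, had 67.6 ± 58.0 CPM in Olfr2- and 607 ± 68.1 in Olfr2+ (log2 fold change 3.17, adjusted p = 0.0673). Irf1, a transcription factor that acts on the Ciita gene, had 344 ± 205 against 792 ± 314 CPM and Irf8, another factor of myeloid cells, 234 ± 54.6 against 175 ± 40.8. The list's column sums overlapped (1930 to 2292 CPM for Olfr2-, 1202 to 2373 CPM for Olfr2+). Of the 7 transcription factors that bind class II promoters, edgeR called 0 (1 higher at an unadjusted p under 0.05), DESeq2 1 and limma-voom 0, with a median of 1.12. Rfxank, a subunit of the RFX complex, had 0.835 ± 0.363 CPM in Olfr2- and 19.5 ± 15.1 in Olfr2+ (log2 fold change 4.55, SE 1.66, edgeR adjusted p = 0.0910), and 0.80 below 60 M counts. Creb1, Nfyb and Nfyc had log2 fold changes of 0.77, 0.23 and 1.12.

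Among 11 other T cell ligands tested, of 13 in the table, 1 rose, 0 fell and 10 did not pass, with a median of 2.45 (0.79 below 60 M counts). At an unadjusted p under 0.05 edgeR had 3 higher and 1 lower, while DESeq2 called 3 higher and 0 lower and limma-voom 0. The 1 lower was Cd70, the ligand of CD27, named after its values were seen (log2 fold change -4.86, edgeR adjusted p = 0.0938). Icam1, the adhesion ligand of LFA-1, had 23.3 ± 19.1 CPM in Olfr2- and 637 ± 500 in Olfr2+ (SD, n = 3, log2 fold change 4.77, SE 1.08, edgeR adjusted p = 0.0370), and differed by 2.31 below 60 M counts (adjusted p = 0.523). It was at 17.3 to 82.8 CPM in the Olfr2- columns, 45.3 to 210 in Olfr2+ columns below 60 M counts and 353 to 803 in the deep columns. Lgals9, Vsir and Cd48, ligands of inhibitory or costimulatory receptors, had log2 fold changes of 3.84, 2.15 and 2.50 and did not pass. Of the 10 genes of CD40 signalling, edgeR, DESeq2 and limma-voom called 0, with 0 at an unadjusted p under 0.05 by edgeR and a median of 0.72. Traf1, an adaptor of that pathway, had 202 ± 178 CPM against 191 ± 72.0, and Birc2 and Birc3, ubiquitin ligases, and Relb, an NF-kB subunit, had log2 fold changes of -0.98, 0.95 and -0.33. Of 4 genes of class II and CD86 turnover the 3 tools called 0, with 0 at an unadjusted p under 0.05. Cd83, which protects both from degradation, had 440 ± 213 against 1226 ± 857 CPM (log2 fold change 1.48, adjusted p = 0.184), and the ubiquitin ligase gene March1 had 48.0 ± 56.0 against 62.3 ± 54.6. Of the 4 remaining class II genes the 3 tools called 0, with 1 higher at an unadjusted p under 0.05. H2-Ob, which pairs with H2-Oa to inhibit H2-DM in B cells, had 24.2 ± 39.4 against 20.2 ± 25.3 CPM.

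Markers of cells that can carry class II, and of others in the artery wall, varied between columns in differing directions, and their part in the results was not tested. The 10 macrophage markers summed to 1579 to 8574 CPM in Olfr2-, 2772 to 3145 in Olfr2+ columns below 60 M counts and 7647 to 14744 in the deep columns. Of them 3 rose (C1qb, C1qc and Lyz2, by 5.18, 4.30 and 2.73 on the log2 scale), 0 fell and 7 did not pass. C1qb ran from 18.8 to 82.6 CPM in Olfr2-, from 9.04 to 177 in Olfr2+ columns 3D, 4A and 4B, and from 347 to 1450 in the deep columns. The 8 fibroblast markers summed to 2181 to 3896, 2271 to 4864 and 29475 to 36001 CPM, and 7 rose, 0 fell and 1 did not pass. They were high in the same 7 columns as Cd74. The 10 B cell markers summed to 2435 to 12675, 10391 to 15319 and 84.1 to 4481 CPM. Deep column 3A, at 4481 CPM, lay within the Olfr2- range. The other deep columns held at most 521 CPM, lower than every column outside the deep set.

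Ighm made up most of the B cell sum in the 8 columns below 60 M counts. Without it the other 9 markers summed to 63.2 to 543 CPM for Olfr2- columns and 1.38 to 282 CPM for the others. Cd79a, Pax5 and Blk were each at 0 in 1 deep column and Fcmr in 3. The 12 dendritic cell markers summed to 812 to 2400 CPM in Olfr2-, 772 to 2739 in Olfr2+ columns below 60 M counts and 146 to 787 in the deep columns. Ccr7, a receptor of migrating dendritic cells, was at 147 to 733 CPM in Olfr2- and reached 1751 CPM in an Olfr2+ column below 60 M counts. The 7 T cell markers summed to at most 226 CPM in any column and the 4 endothelial markers to at most 740. Of the B cell, dendritic cell, T cell and endothelial lists, no gene passed: 0 by edgeR, DESeq2 or limma-voom, and 0 at edgeR's unadjusted p under 0.05. Cdh5 and Tie1, which mark endothelium, were each at 0 in 3 deep columns. H2-Aa, H2-Ab1, H2-Eb1 and Cd74 together summed to 5667 to 18740 CPM in Olfr2-, 11187 to 16554 in Olfr2+ columns below 60 M counts and 20032 to 47757 in the deep columns. They were thus highest in the 7 columns with the highest fibroblast sums, and the macrophage sums of those columns were above all others but Olfr2- 4B. Single genes made up much of these sums. Lyz2 was at 4740 to 10335 CPM in the deep columns and 716 to 7847 in Olfr2- columns, and Dcn at 10164 to 18523 CPM in the deep columns.

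**Figure D5:**
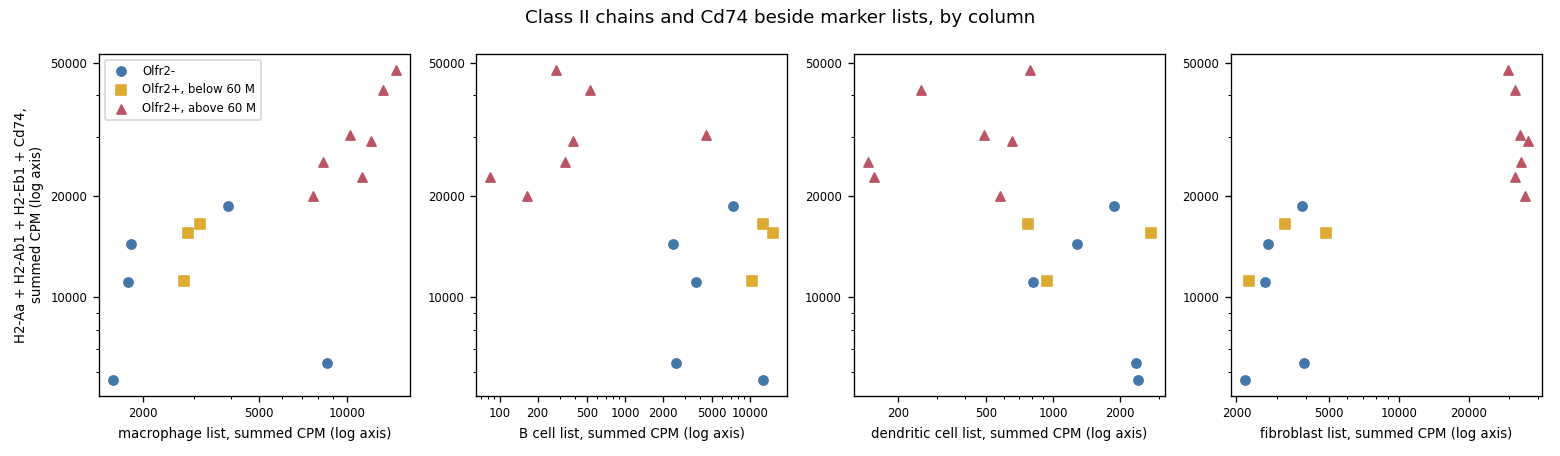
Summed CPM of marker lists and of the class II chains with Cd74 in each of the 15 columns on a log axis. Fibroblast markers reach 29475 to 36001 CPM in the 7 deep Olfr2+ columns and at most 4864 CPM in the other 8.

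Across the 15 columns, with each gene centred on its depth set, the members were compared with the chains and Cd74. The correlation of log2(CPM + 1) with the sum of the chains and Cd74 (other than the gene itself) was 0.63 for H2-Aa, 0.57 for H2-Ab1, 0.58 for H2-Eb1 and 0.61 for Cd74. It was 0.64 for Cd86, 0.61 for H2-DMb1 and 0.52 for Ciita, and lower for H2-DMa (0.41), H2-DMb2 (0.33) and Cd40 (0.01). Of the cell type markers, the T cell gene Lck (0.73) and the fibroblast gene Col1a1 (0.66) were above all 10 members. The other markers compared were below Cd86. The members thus did not stand apart from such genes. Outside the list, and out of 8307 genes of at least 10 CPM, the 5 most like the full sum were Anxa1 (0.88), Vdac1 (0.87), Ucp2 (0.85), Hnrnpf (0.85) and Atp5l (0.84). Anxa1 encodes an anti-inflammatory phospholipid-binding protein, Vdac1, Ucp2 and Atp5l encode proteins of mitochondria, and Hnrnpf an RNA-binding protein. These correlations are descriptions, since columns share sorted samples, library strings and amplification.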

How the data were processed

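The authors deposited whole-number read counts per gene, not normalized, from Smart-Seq2 libraries (18 cycles of cDNA PCR and 9 of tagmentation PCR, per the labels' protocols). The submitters' processing notes name DRAGEN, STAR 2.7.1, DESeq2 1.34 and the build GRCm39 without roles. No annotation release or strand setting is given in the sources used here. By identifier, 98.9% of features were in GENCODE M21 (GRCm38), from which exon lengths and transcripts came.

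Columns of a numbered sample were summed, and the sums were tested with the quasi-likelihood test of edgeR 4.0.16 (R 4.3.3), TMM scaling, edgeR's expression filter and Benjamini-Hochberg adjustment over 24362 genes. TMM factors ran from 0.485 to 1.65 and summed totals from 30.5 to 363.9 M counts. Standard errors came from the F statistic. Alternatives were DESeq2 1.42.0, limma-voom (limma 3.58.1), other scalings, filters and units of replication, the depth division at 60 M counts, the sample number as a block and omission of each sample. Stretches of 50 letters were compared on both strands between transcripts of different genes. Counts carry no molecular identifiers and are not independent molecules.

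The 10 members, the lists, the division by depth and the tests were chosen with earlier results of these data known. All 10 members were named, and from each pathway or marker list those that passed and up to 4 of the highest mean level were eligible. Cdh5, Tie1, Cd79a, Blk, Fcmr and Pax5 were named for values of 0, and Adgre1 and Fcgr1 as the gate's genes. Ctss, Ifngr1, Traf1, Cd83 and the other examples were taken from the highest levels.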

Additional observations from a re-analysis of the deposited data

Results flagged for a closer look

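In 20 groups of columns tested for a value far from the others (Dixon's test at 95%, for which chance gives about 1 in 20), 4 columns stood apart. H2-DMa was at 4222 CPM in Olfr2- 4A, the highest of 5 columns labelled Olfr2-, the next being 133 CPM. Cd86 was at 314 CPM in Olfr2- 3A, the highest of 5, and at 856 CPM in Olfr2+ 4B, the highest of 10 columns labelled Olfr2+. Cd40 was at 149 CPM in Olfr2+ 3B, the highest of 10.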

How the results depend on the processing

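Of the 10 genes, 8 kept a higher level in the libraries labelled Olfr2+ under all 17 alternatives, the exceptions being H2-DMa (10 of 17 in its direction) and Cd40 (16 of 17). Their size depended on the setting: with library totals H2-Aa, H2-Ab1 and Cd74 had log2 fold changes of 0.74, 0.98 and 2.1, and among genes averaging 10 CPM or more they were 0.43, 0.63 and 1.76, H2-Eb1 being at 0.40 and H2-DMb1 at 0.68. Cd74 was called under 10, H2-Ab1 and H2-DMb2 under 2, H2-Aa, H2-Eb1, H2-DMb1 and Ciita under 1, and H2-DMa, Cd86 and Cd40 under none. From 273 genes higher, 112 lower and 2 of the 10 higher, the counts went to 4016, 2695 and 4 with DESeq2. With library totals they were 80, 256 and 0, with no low-count filter 642, 239 and 1, and with library strings as samples 885, 683 and 5. They were 109, 48 and 1 without Olfr2- column 4A, chosen after seeing the data, and 1 of the 10 with DESeq2 size factors in edgeR. All 3 counts were 0 with limma-voom, a mean of at least 10 CPM, columns below 60 M counts and the depth set as covariate. At an unadjusted p under 0.05 these 4 still gave 3303, 837, 1455 and 1551 genes higher. The cause was not tested. Leaving out 1 sample at a time gave 6 to 973 genes higher, 0 to 113 lower and 0 to 2 of the 10 higher. H2-DMa had log2 fold changes of -1.0 with library totals, -1.31 at 10 CPM, -0.47 below 60 M counts, -0.54 with the covariate and -0.43 to 3.39 leaving out 1 sample, and Cd40 of -1.28 to 0.65.

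With the sample number as a replicate block, 2 genes were called higher, 0 lower and 0 of the 10, where Cd74 had a log2 fold change of 1.84 (edgeR adjusted p = 0.341). The deviations of same-numbered samples correlated at 0.013 for sample 3 and -0.072 for sample 4, and the labels do not say that a number pairs the groups, so the samples share only a number.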
